A study of Homo sapiens with 11 samples.

Results

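The 10 S100 cluster genes described here (S100A2, S100A3, S100A4, S100A6, S100A8, S100A10, S100A11, S100A13, S100A14 and S100A16) were chosen by name as genes of chromosome 1q21, and all 10 were found among the 58288 genes of the RNA-seq data, of which 19646 were protein coding and could be placed on GRCh37. They were measured in HK2 cells, an immortalised epithelial cell line from the proximal tubule of the human kidney, which as a cell line stands for 1 source of cells. There was 1 culture condition, with 2 RNA-seq libraries of rRNA-depleted RNA and 2 ChIP-seq replicates for each of 3 histone marks, so the values below describe these cells and no comparison between conditions exists. H3K4me3 marks promoters, H3K27ac marks active promoters and enhancers, and H3K27me3 marks chromatin repressed by Polycomb proteins. The deposited peak lists give the limits of each peak without its height and number 29130 to 73942 peaks per replicate, and the labels do not say whether the replicates came from separate cultures, so an SD over 2 libraries may measure technical spread.

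S100 proteins are small proteins that bind calcium through EF-hand loops, mostly act as dimers, and on binding calcium expose a surface that grips partner proteins such as annexins and myosin. Most of their genes lie side by side on chromosome 1q21, where a long block of epidermal differentiation genes separates S100A10 and S100A11 from the rest. Inside cells they act on the cytoskeleton, membranes and transcription factors, and some are released and act on receptors such as RAGE and TLR4. In the kidney, several members are known as markers of injured, inflamed or dedifferentiated epithelium.

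The cell label was checked against marker genes by FPKM, which is fragments mapped to a transcript, scaled to its length and to all mapped fragments of the library. Of 10 proximal tubule markers, 4 reached an FPKM of 1 in each library (PAX8, GGT1 and SLC5A2 among them), while LRP2 and HNF4A were listed at 0, and 4 of 5 epithelial markers reached 1. Of 8 myeloid markers, 2 did so, CD68 at 39.6 ± 4.0 and CSF1R at 4.48 ± 0.253 (here and below ± gives the SD of the 2 libraries, n = 2), with PTPRC, FCGR3A and MPO listed at 0. Of 6 keratinocyte markers only KRT10 did so, with KRT1, KRT5 and KRT14 listed at 0, and none of 3 endothelial or 3 podocyte markers did. Of 5 fibroblast markers, COL1A1 and VIM did so, and VIM differed between the libraries, at 709 and 1133. Dividing the coverage of transcripts by their FPKM put the mapped fragments at 5.67 and 5.52 Gb of aligned sequence in libraries 1 and 2.

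The members spanned from 1 of the most abundant mRNAs of the cell to a gene listed at 0. Of the 10 genes, 8 had an FPKM of 1 or more in each library, a level that 58.8% of protein-coding genes reached. In each library, 4 members were at an FPKM of 100 or more (S100A6, S100A11, S100A10 and S100A16), against 2.37% of protein-coding genes. Summed over the 10 genes the FPKM was 1826 and 1750, which made up 0.503% and 0.487% of all TPM, transcript abundance scaled to a fixed total, in libraries 1 and 2. The 4 most abundant genes held 93.2% and 92.9% of the summed FPKM. The median over the 10 genes was an FPKM of 54.0, beside 3.32 over all protein-coding genes.

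S100A6 (calcyclin, ENSG00000197956), which binds the ubiquitin ligase adaptor CACYBP and annexins, had an FPKM of 983 in library 1 and 942 in library 2 (963 ± 29.0, SD, n = 2). It ranked 22 of 19646 protein-coding genes and alone gave 53.8% of the summed FPKM of the 10 genes in each library. S100A11 (ENSG00000163191), a partner of annexin A1 at membranes, followed with FPKM of 324 and 318 (321 ± 4.32), so that S100A6 was 3.0-fold higher. S100A10 (p11, ENSG00000197747), which has lost calcium binding and forms a tetramer with annexin A2 at the plasma membrane, had FPKM of 238 and 232 (235 ± 4.37). By mean FPKM these 3 genes lay at percentiles of 99.9, 99.3 and 99.1 of protein-coding genes.

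S100A16 (ENSG00000188643), a broadly expressed member, had FPKM of 156 and 133 (145 ± 16.3). S100A13 (ENSG00000189171), which takes part in the export of FGF1 and IL1A from cells, had FPKM of 73.3 and 78.0 (75.6 ± 3.28), 1.91-fold below S100A16. S100A2 (ENSG00000196754), a nuclear member known from basal epithelial cells, had FPKM of 33.3 and 31.6 (32.5 ± 1.2). The 3 genes thus formed the middle of the order, with S100A2 still at a percentile of 89.8 of protein-coding genes.

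S100A3 (ENSG00000188015), a cysteine-rich member known from the hair cuticle, had FPKM of 14.9 and 11.3 (13.1 ± 2.56). S100A4 (ENSG00000196154), which binds the non-muscle myosin heavy chain MYH9 and is often used as a fibroblast marker, had FPKM of 2.88 and 3.68 (3.28 ± 0.566), 4.0-fold below S100A3 and at a percentile of 49.8. S100A14 (ENSG00000189334), a member of many simple and stratified epithelia, had FPKM of 0.258 and 0.309 (0.283 ± 0.0358), 11.6-fold below S100A4. S100A8 (ENSG00000143546), which pairs with S100A9 as calprotectin in neutrophils and monocytes, was listed at 0 in both libraries.

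No neighbours in this order overlapped: for each pair next to each other, both libraries of the higher gene lay above both libraries of the lower one. The log2 difference of FPKM + 1 between the libraries, library 2 minus library 1, ranged from -0.37 for S100A3 to 0.27 for S100A4. None of the 8 members with an FPKM of at least 1 was over 2-fold apart, against 0.885% of the 11748 protein-coding genes whose mean FPKM was 1 or more. For S100A14 the values rest on a coverage of 1.46 and 1.7 reads per base, summed over its transcripts, compared with 5578 and 5201 for S100A6.

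**Figure D1:**
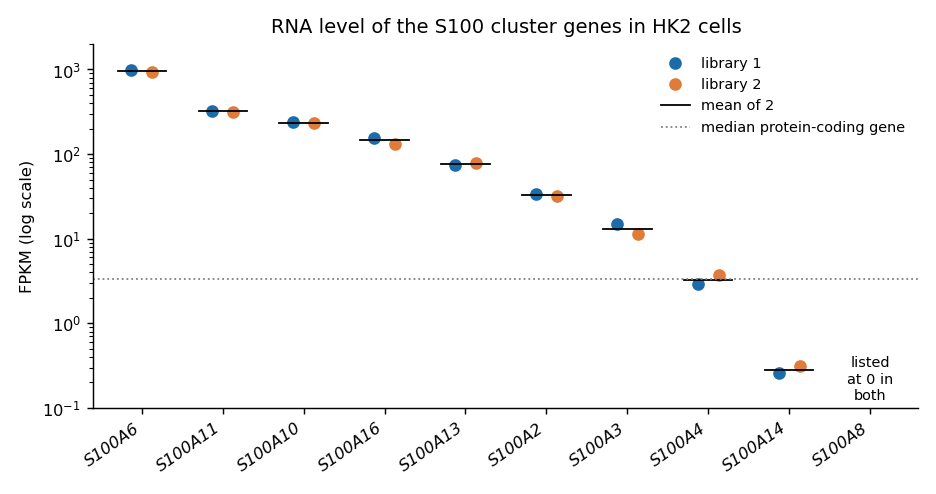
FPKM on a log axis for each S100 cluster gene in library 1 (blue) and library 2 (orange), with the mean of both as a black line and the median protein-coding gene as a dotted line. S100A6 lies highest at 963, S100A4 lies at 3.28 close to the median gene at 3.32, and S100A8, listed at 0, cannot be drawn on this axis.

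The transcripts behind these levels differed from gene to gene. S100A11, S100A10 and S100A6 each drew nearly all of their FPKM from 1 transcript, whose share was 99.9% in both libraries for S100A11 (ENST00000271638), 99.1% and 99.3% for S100A10 (ENST00000368811) and 92.6% and 95.2% for S100A6 (ENST00000368719). The leading transcript of S100A2 (ENST00000368708) held 81.0% and 85.8%. In S100A13, ENST00000392623 held 73.4% and 74.7%, while the transcript that Ensembl names canonical (ENST00000476133) held 1.31% and 1.35%. S100A3 divided its FPKM between 2 transcripts, of which ENST00000368713 had 58.6% and 66.1%.

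S100A16 was the only member with an FPKM over 100 that had no dominant transcript. ENST00000368703 led in library 1 with 37.7% and had 30.8% in library 2, ENST00000368705 led in library 2 with 38.4% and had 34.6% in library 1, and ENST00000368706 had 25.4% and 26.1%. The leading transcript of S100A4 also differed between the libraries, with ENST00000468373 at 29.3% in library 1 and ENST00000368716 at 49.1% in library 2. Both of these transcripts begin at the same start site. In S100A14 a different transcript carried all of the FPKM in each library, and none was above 0 in both.

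**Figure D2:**
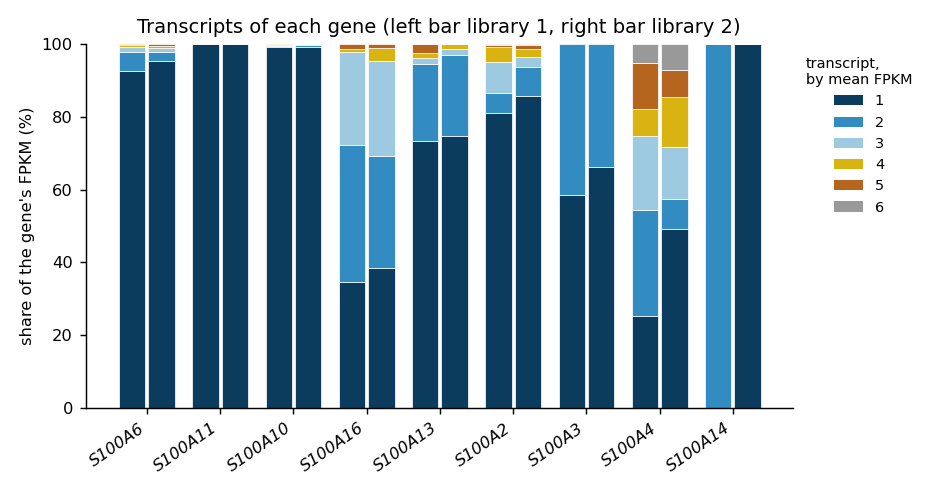
Share of each gene's FPKM (percent) held by its transcripts, with library 1 as the left bar and library 2 as the right bar of each gene, and colours ordered by mean FPKM within the gene. S100A11 and S100A10 are nearly a single colour, S100A16 splits into 3 large parts, and the colours of S100A14 change from 1 library to the other.

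Some of these genes share bases, counted here over whole gene spans with introns, so a shared base need not enter an FPKM. S100A3 lies wholly inside S100A4 on the same strand, over 1930 bp. Only 1 S100A4 transcript (ENST00000368714), with 5.39% and 7.3% of the FPKM of S100A4 in libraries 1 and 2, reaches over S100A3. S100A13 overlaps S100A1, on the opposite strand, over 3435 bp, and a lncRNA on its own strand (ENSG00000271853, FPKM of 3.75 and 2.04) over 5029 bp. S100A11 overlaps an antisense lncRNA (ENSG00000229021) with FPKM of 0.012 and 0 over 10269 bp, and S100A6 overlaps an antisense lncRNA (ENSG00000238279) over 531 bp. S100A1 had an FPKM of 12.3 ± 2.42 and the antisense lncRNA of S100A6 2.27 and 3.23. The strand setting of the libraries is not given in the sources used here, so reads from any shared exon bases cannot be told apart. The annotated pseudogenes of S100A11 took few reads, with S100A11P1 listed at 0 and S100A11P2 at 0 and 0.0644.

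All 10 genes are read from the minus strand of chromosome 1. In GRCh37 coordinates S100A10 lies from 151955391 to 151966335 and S100A11 from 152004982 to 152020383. S100A8 lies from 153362508 to 153363549, S100A6 from 153507075 to 153508720, S100A4 from 153516089 to 153522612 and S100A3 from 153519805 to 153521734. S100A2 lies from 153533584 to 153540366, S100A16 from 153579362 to 153585621, S100A14 from 153586731 to 153589462 and S100A13 from 153591263 to 153603836.

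The DNA around the canonical start sites was poor in CpG in most members. Most active promoters in human cells lie in CpG islands, where the CpG dinucleotide is about as frequent as the C and G content predicts. In the 1 kb around the canonical start site, the observed to expected CpG ratio had a median of 0.207 over the 10 genes and 0.727 over 19547 protein-coding genes. S100A10, at 0.782, was the only member at 0.6 or more, a value that 66.8% of protein-coding genes reached, and S100A11 at 0.596 lay just under it. S100A6 had 0.501, S100A13 0.309, S100A4 0.23, S100A16 0.184, S100A14 0.166, S100A8 0.154, S100A3 0.152 and S100A2 0.107. At the start site of the transcript with the highest mean FPKM, the ratio was 0.306 for S100A16, 0.364 for S100A13 and 0.153 for S100A14, and the same start site was used in the other 7 genes. Among the 465 protein-coding genes at an FPKM of 100 or more in each library, 29 had a ratio under 0.6, and 3 of those were S100A6, S100A11 and S100A16.

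**Figure D3:**
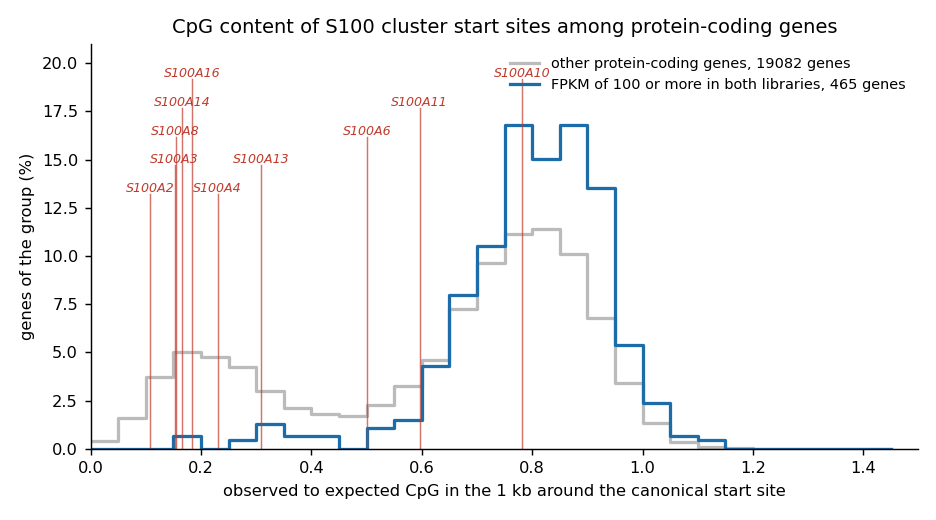
Observed to expected CpG in the 1 kb around the canonical start site (horizontal) against the percent of genes in each bin (vertical), for the 465 protein-coding genes with FPKM of 100 or more in both libraries (blue) and the other protein-coding genes (grey), with each S100 cluster gene as a red line whose height has no meaning. S100A10 sits within the main peak of both curves at 0.782, while 7 members lie at 0.309 or lower.

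To show how the members differ close to the start site, sequences are printed 5′ to 3′ on the minus strand of GRCh37, as the 150 bases before the start site of the transcript with the highest mean FPKM, or the canonical one for S100A8. Capitals mark the letters of 4 motifs searched on both strands in the 250 bases upstream: the AP-1 site TGANTCA, the TATA box TATAAA, the CCAAT box CCAAT and the GC box GGGCGG. S100A10 (chr1:151966336-151966485) and S100A11 (chr1:152009481-152009630) held 19 and 12 CpG dinucleotides in these bases, and S100A6 held 17, although the 1-kb ratios of S100A6 and S100A11 were under 0.6.
S100A10: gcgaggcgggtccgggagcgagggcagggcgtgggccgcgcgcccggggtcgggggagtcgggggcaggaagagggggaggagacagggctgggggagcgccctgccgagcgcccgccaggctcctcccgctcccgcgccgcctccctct
S100A11: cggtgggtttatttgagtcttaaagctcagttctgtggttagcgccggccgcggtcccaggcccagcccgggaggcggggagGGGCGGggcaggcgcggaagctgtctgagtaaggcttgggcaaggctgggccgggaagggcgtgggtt
S100A16 (chr1:153581821-153581970), S100A2 (chr1:153538321-153538470), S100A4 (chr1:153518283-153518432) and S100A8 (chr1:153363550-153363699) held 6, 4, 4 and 1.
S100A16: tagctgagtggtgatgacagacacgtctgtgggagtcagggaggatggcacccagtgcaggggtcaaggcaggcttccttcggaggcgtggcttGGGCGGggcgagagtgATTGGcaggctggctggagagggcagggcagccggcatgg
S100A2: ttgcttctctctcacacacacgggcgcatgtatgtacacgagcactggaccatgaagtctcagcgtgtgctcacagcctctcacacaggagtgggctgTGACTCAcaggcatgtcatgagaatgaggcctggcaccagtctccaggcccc
S100A4: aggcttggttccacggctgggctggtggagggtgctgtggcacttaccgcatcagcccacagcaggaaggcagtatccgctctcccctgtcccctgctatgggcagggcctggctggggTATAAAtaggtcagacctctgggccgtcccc
S100A8: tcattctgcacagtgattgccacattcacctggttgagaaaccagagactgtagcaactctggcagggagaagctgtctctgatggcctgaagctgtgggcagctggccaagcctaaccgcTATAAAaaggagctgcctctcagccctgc
For S100A6, whose upstream bases are also exon of minor transcripts, only the stretch that holds its GC boxes is printed (chr1:153508537-153508557).
S100A6: GGGCGGgacttGGGCGGGCGG

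The GC box, bound by Sp1 family factors, was found in 5 of the 10 members (S100A3, S100A6, S100A10, S100A11 and S100A16) and upstream of the canonical start of 59.5% of protein-coding genes. S100A6 had 3 matches, which begin 90, 79 and 75 bases before its start site, the last pair overlapping, whereas the match of S100A10 begins 167 bases upstream and lies outside the printed stretch. The TATA box, which positions the transcription machinery, was found in S100A4, 31 bases upstream, and S100A8, 29 bases upstream, and in 9.22% of protein-coding genes. The AP-1 site, bound by FOS and JUN, was found in S100A2, 52 bases upstream, and S100A3, 225 bases upstream, and in 4.71% of protein-coding genes. The CCAAT box was found in S100A3 and S100A16, and in 34.3% of protein-coding genes. S100A13 and S100A14 held none of the 4. A match describes the letters only.

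The 6 members with the highest FPKM had both active marks at a start site, S100A3 and S100A4 had H3K27ac without a reproduced H3K4me3 peak, S100A14 had no reproduced peak, and S100A8 had H3K27me3. An H3K4me3 peak of both replicates within 1 kb of a start site was present at 6 of the 10 genes (S100A2, S100A6, S100A10, S100A11, S100A13 and S100A16), compared with 70.3% of protein-coding genes. H3K27ac of both replicates was present at 8 of the 10, the same 6 with S100A3 and S100A4, compared with 55.0%. Both marks in both replicates were present at 6 of the 10, compared with 53.5%. H3K27me3 of both replicates was present at S100A8 alone, compared with 11.4% of protein-coding genes. The member with the lowest FPKM above 0, S100A14, had neither H3K27ac nor H3K27me3 in any replicate. Of the 9 members with a CpG ratio under 0.6, 5 had H3K4me3 in both replicates, against 26.6% of all genes under that ratio.

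S100A10 had the broadest acetylation of the members. Its H3K27ac peak was 11341 bp wide in replicate 1 and 7245 bp in replicate 2, at the 98.2 and 99.5 percentiles of the widest peak at the start sites of genes that had one. Its H3K4me3 peaks were 5292 and 1897 bp. Peaks were narrower in replicate 2, with a median widest H3K27ac peak of 967 bp over genes, beside 2096 bp in replicate 1.
S100A6, the most abundant member, had H3K27ac peaks of 5144 and 4066 bp (percentiles of 91.1 and 97.4) and H3K4me3 peaks of 3598 and 2152 bp. S100A2 had broad H3K27ac, at 6536 and 6460 bp (percentiles of 94.3 and 99.3), while the FPKM of S100A6 was 29.6-fold higher than its own. Its H3K4me3 differed between replicates, with a peak of 3751 bp over the main start site in replicate 1 and one of 551 bp that ended 832 bp from it in replicate 2.

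S100A11 and S100A16 each had a pair of marked start regions. At S100A11, the main start site at 152009480 had both active marks in both replicates. Another start site 10903 bp upstream, at 152020383, lay in H3K27ac peaks of 2850 and 2564 bp, with H3K4me3 in replicate 1 only. Its transcript (ENST00000478109) had FPKM of 0.48 and 0.311, which is 0.148% and 0.0979% of the gene. At S100A16, H3K4me3 peaks of 2071 and 1182 bp marked the start sites near 153581820, and peaks of 2296 and 1459 bp marked those near 153585613, in replicates 1 and 2. The H3K27ac peak of replicate 1 joined them into 5834 bp, while replicate 2 had peaks of 1798 and 1311 bp. All transcripts of S100A16 start within 1 kb of both active marks in both replicates.

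S100A13 had H3K4me3 peaks of 1827 and 1446 bp and H3K27ac peaks of 2875 and 2332 bp in replicates 1 and 2. These peaks also lie at the start sites of S100A1, which points the other way, so the marks cannot be assigned to 1 of the genes. Start sites with 98.3% and 98.6% of the FPKM of S100A13 lay within 1 kb of both active marks in both replicates.

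S100A3 and S100A4 had RNA without a reproduced H3K4me3 peak. The same 379-bp H3K4me3 peak, found in replicate 1 only, lay within 1 kb of start sites of both genes, and the same H3K27ac peaks, of 6601 bp in replicate 1 and 2633 bp in replicate 2, served both. They were 2 of the 8 members with an FPKM of at least 1, and such genes without H3K4me3 in both replicates made up 2.73% of the 11549 protein-coding genes at that level. The H3K27ac of replicate 2 covered the start sites of S100A3 and that of the longest S100A4 transcript (ENST00000368714), which held 5.39% and 7.3% of the FPKM of S100A4. The leading S100A4 transcripts of both libraries begin at 153518282, and the nearest H3K27ac peak of replicate 2 lay 1095 bp from that start. In replicate 2 the S100A4 call thus rests on a start site that gave little of its RNA. The H3K27ac peak of replicate 1 covered every S100A4 start site, the leading one included.

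S100A14, between S100A16 and S100A13, had 1 H3K4me3 peak of 350 bp in replicate 2 and none in replicate 1. The nearest H3K27ac peaks lay 2159 to 3524 bp from its start sites. S100A8 lacked both active marks within 1 kb of its start sites in every replicate. Its start site at 153363549 lay inside an H3K27me3 peak of 1527 bp in replicate 1, and the peak of replicate 2, 1023 bp wide, began 571 bp upstream of it. With a window of 500 bp no member had H3K27me3 in both replicates.

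Along chromosome 1 the cluster was taken from S100A10 to S100A1, 1649 kb from 151955391 to 153604515. Its 2 ends were rich in acetylation, and the long middle was nearly free of it. H3K27ac peaks of both replicates covered 20.1% of the 65.0 kb from S100A10 to S100A11 and 18.7% of the 97.4 kb from S100A6 to S100A1, beside 1.23% of the genome. Over the 1310 kb of epidermal differentiation genes between, they covered 0.122%. All of this was the end of the H3K27ac region at the upstream S100A11 start site, which crosses the border. From S100A9 to the end of S100A7, the 103 kb that hold S100A8, they covered 0 in both replicates. Over the whole 274 kb from S100A9 to S100A1 they covered 7.99%. That block was planned as 1 part, and its division at S100A7 and S100A6 was an addition to the plan. The contrast within it depends on where those borders were placed.

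H3K27me3 had another distribution. Of the 15.6 kb of the cluster under its peaks in both replicates, 13.9 kb lay among the epidermal differentiation genes. Those genes take up 1310 of the 1649 kb, so most of that share goes with length. That stretch had 6.54% and 1.44% under peaks in replicates 1 and 2, with 1.06% shared. From S100A6 to S100A1 there was no H3K27me3 peak in either replicate. S100A9 to S100A7 had 8.29% and 5.04% under peaks in replicates 1 and 2, with 0.372% shared. The genome had 2.85% and 0.862%, with 0.622% shared. The whole block from S100A9 to S100A1 had 5.68% and 2.28%, with 0.159% shared. The stretch free of H3K27me3 was 289 kb long in replicate 1 and 212 kb in replicate 2, lengths that were not compared with the rest of the genome. On the S100A8 side it began 36.9 kb from the upstream end of S100A6 in replicate 1 and 69.3 kb in replicate 2. H3K27ac began on that side at 153478932 in replicate 1 and 153478946 in replicate 2, a difference of 14 bp. S100A10 to S100A11 carried both kinds of mark, with 1.94% under H3K27me3 in both replicates, though its peaks there summed to 12972 bp in replicate 1 and 1307 bp in replicate 2.

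**Figure D4:**
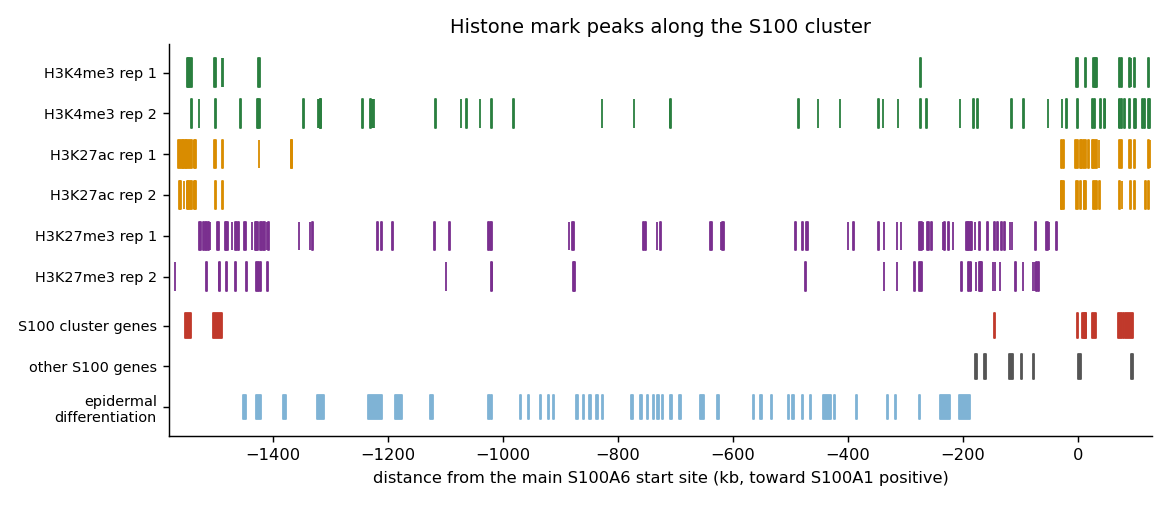
Peaks of H3K4me3, H3K27ac and H3K27me3 in each replicate along the cluster, against distance from the S100A6 start site in kb, with the S100 cluster genes (red), other S100 genes (dark grey) and epidermal differentiation genes (blue) below. Narrow features are drawn at a minimum width. H3K27ac is dense at both ends, at the S100A10 and S100A11 genes and right of S100A6, and nearly absent in between.

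**Figure D5:**
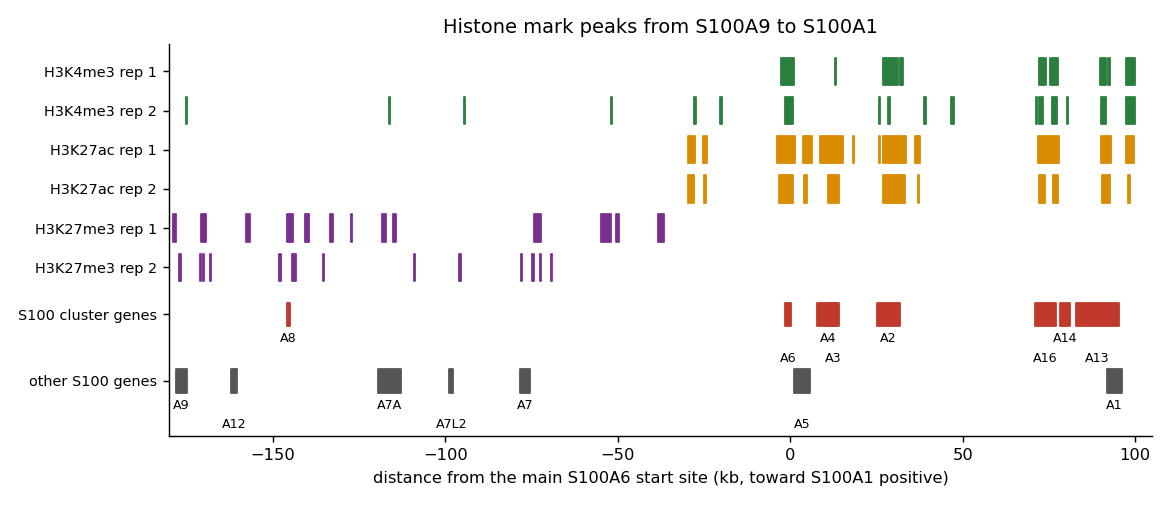
The right end of the cluster from S100A9 to S100A1 in the same layout, with genes named without the S100 prefix. H3K27me3 peaks lie only to the left, no closer than 36.9 kb to the upstream end of S100A6, H3K27ac peaks lie right of them, and S100A8 is among the H3K27me3 peaks.

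Of the 7 other S100 genes of 1q21, only S100A1 had an FPKM of at least 1, and its range overlapped that of S100A3. S100A5, between S100A6 and S100A4, had 0.142 ± 0.0148 with H3K27ac in both replicates, and S100A7, S100A7A, S100A7L2, S100A9 and S100A12 were listed at 0. S100A9, the partner of S100A8, had an H3K27me3 peak within 1 kb in both replicates, as S100A8 did. The S100A9 peaks did not overlap, since the replicate 1 peak ended at 153330450 and the replicate 2 peak began at 153331227. Of the 44 epidermal differentiation genes, none reached an FPKM of 1, 41 were listed at 0, and the highest, TCHH, had 0.0443. H3K27me3 of both replicates was present at 5 of the 44, a share near the 11.4% of protein-coding genes, and H3K27ac at none, compared with 55.0%. All 5 flanking genes had an FPKM of at least 1, from THEM5 at 2.56 to ILF2 at 122. The S100 genes of other chromosomes (S100B, S100P, S100Z and S100G) had at most 0.0833, in S100P.

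H3K27ac regions of both replicates that touched no H3K4me3 region of both replicates numbered 14 along the cluster, of which 11 had their midpoint over 1 kb from any S100 start site. Of these 14, 6 lay from S100A10 to S100A11 and 4 from S100A6 to S100A1, and none lay from S100A9 to S100A7, the part that holds S100A8. The other 4 lay between S100A7 and S100A6, with midpoints 24681 to 29382 bp from the S100A6 start site, at the border where H3K27ac begins. An annotated start site outside the S100 genes lay nearer to each of them, at 5845 to 10546 bp. None lay wholly among the epidermal differentiation genes. The region at the upstream S100A11 start site, counted among the 6 from S100A10 to S100A11, had 1596 of its 2564 bp past the border in that stretch. The AP-1 site was found in the middle 250 bases of 2 of the 14, compared with 13.6% of 24387 such regions of the genome. 1 of these is the region of 2564 bp at the upstream S100A11 start site, printed on the plus strand (chr1:152020573-152020822) with the AP-1 site in capitals.
S100A11 upstream region: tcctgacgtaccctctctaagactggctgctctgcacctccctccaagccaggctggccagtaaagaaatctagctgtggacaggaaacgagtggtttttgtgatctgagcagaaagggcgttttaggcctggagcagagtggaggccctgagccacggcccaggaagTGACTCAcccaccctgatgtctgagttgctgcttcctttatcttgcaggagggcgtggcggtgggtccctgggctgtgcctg

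The proteins that S100 members act on were mostly present as RNA. Of 17 partner and receptor genes, 14 had an FPKM of 1 or more in each library, compared with 58.8% of protein-coding genes, and their median was 29.4. The S100A10 partner ANXA2 had FPKM of 511 and 507 (509 ± 2.86), above both S100A10 values, and AHNAK, a large scaffold that binds the S100A10 and ANXA2 complex, had 114 and 60.5. The S100A4 partner MYH9 had 563 ± 6.55, whereas S100A4 itself had 3.28. The S100A11 partner ANXA1 had 18.3 ± 0.966, below S100A11, and the S100A6 partners CACYBP and SUGT1 had 45.8 ± 7.71 and 9.05 ± 1.57.

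Of the receptors, AGER, which encodes RAGE, had 1.83 ± 0.244 and TLR4 had 0.111 ± 0.0336. BSG, a further receptor for extracellular S100 proteins, had 288 ± 18.2. The cargo of S100A13, FGF1 and IL1A, had 0.00662 and 0.0716 in the mean, with FGF1 listed at 0 in library 1. ANXA6 and SYT1 had 48.8 ± 2.77 and 2.78 ± 0.196, and EZR, CAPN1 and IQGAP1 had 201 ± 6.91, 29.4 ± 0.558 and 59.7 ± 2.48. None of the 17 had H3K27me3 in both replicates, beside 11.4% of protein-coding genes.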

How the data were processed

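ChIP-seq reads were aligned by the authors to hg19 with Bowtie2, and peaks were called with MACS2 in each replicate. The 6 deposited peak lists hold positions alone. The paper names hg19 also for the RNA-seq reads, which the authors mapped with HISAT2. The deposited FPKM and TPM values per transcript come from StringTie 1.3.3. Their headers and coordinates, however, are those of GENCODE version 27 on GRCh38. Genes were therefore joined by Ensembl identifier to GENCODE version 44 mapped to GRCh37, and no RNA-seq coordinate was used. For every mark 1 of the titles is unnumbered, and that sample was called replicate 1. Input DNA and HiChIP were not analysed here.

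FPKM was summed over the transcripts of a gene, and a peak was counted at a gene when it lay within 1 kb of an annotated start site. The read depth behind each single peak is unknown. The paper reports aligned read pairs and the fraction of reads in peaks for each ChIP-seq replicate. In the replicates it numbers 1 and 2, that fraction was several-fold higher in replicate 1 for H3K27ac. It was also higher in replicate 1 for H3K4me3, and low in both replicates for H3K27me3. Peak widths and cover are therefore not on an equal footing between replicates. With 1 condition and 2 replicates no test was run, and no genes of similar pattern were sought. The members and gene lists were chosen with earlier results of these data known, and the rule for genes named took the 10 members, the listed S100 genes, partners, neighbours and marker genes. A few listed genes enter the counts of their list but are not reported here. CpG content and motifs were read from GRCh37. Python 3.11.15, numpy 2.4.6, pandas 2.3.3 and matplotlib 3.10.9 were used, and interval functions were tested on simulated data. Alternatives covered the transcripts used, TPM, the FPKM floor, the window, the start site, the width of peaks and the replicates.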

Additional observations from a re-analysis of the deposited data

How the results depend on the processing

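With the highest transcript only in place of the sum, the summed FPKM of the 10 genes was 1602 instead of 1788, and S100A16 (52.6) fell behind S100A13 (56.0), while the other 8 ranks were as before. With 1 start site per gene, taken as the outermost upstream end of the annotated gene, H3K4me3 of both replicates was found at 3 members (S100A6, S100A10 and S100A16) instead of 6. In the other 3, start sites with H3K4me3 in both replicates held 98.3% to 99.9% of the FPKM. With a window of 500 bp H3K27me3 was found at 0 instead of 1. Using a single replicate in place of both, the kb of the cluster under peaks went from 12.7 to a range of 29.8 to 35.3 for H3K4me3, from 36.6 to 37.7 to 56.6 for H3K27ac, and from 15.6 to 26.4 to 114 for H3K27me3, since a base then needs 1 replicate only. The order of the 10 genes was the same with TPM, with protein-coding transcripts only and with either RNA-seq library left out. With protein-coding transcripts only, S100A4 fell to an FPKM of 2.39. The counts of members with H3K27ac were 7 or 8 under every alternative run. H3K27ac regions without H3K4me3 along the cluster numbered 10 instead of 14 when an H3K4me3 peak of either replicate was excluded. They numbered 13 with either replicate left out. No paired analysis was possible because the comparisons are not between groups and no test was run. FPKM gives no read counts, and the spread of 2 libraries does not measure counting error. The precision of the low values of S100A14 and S100A4 is therefore unknown, and those of S100A14 rest on a coverage of 1.46 and 1.7.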
